A study of Homo sapiens with 36 samples.

Results

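The genes described here copy the genome in S phase and divide the cell in mitosis. They are 38 of the 57771 genes in the table, chosen by name: 29 form an S-phase set (the MCM2-7 helicase, origin licensing and helicase activation factors, polymerase and clamp proteins, nucleotide supply enzymes, E2F1 and the cyclins E) and 9 form a mitotic set (CDK1, CCNA2, CCNB1, PLK1, AURKA, AURKB, BUB1, TOP2A and MKI67). All 38 were found by their Ensembl identifiers, and all 38 passed the low-count filter. Membership used no measured value, but the genes and sets were picked with earlier results of these data known.

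RNA-seq was made from 36 HepG2-IGF1R-KO libraries; HepG2 is a human liver tumour line, and its IGF1R gene (IGF-1 receptor) had been knocked out. The 4 groups hold 9 libraries each, which the labels call biological replicates: insulin-stimulated and untreated cells kept in insulin resistant medium, and insulin-stimulated and untreated cells kept in normal medium. Stimulation was 3 nM human insulin for 18 h. The resistant medium contained 20 mM glucose, fatty acids at 0.5 mM (oleic, linoleic and palmitic) and insulin at 1 nM, and cells stayed in it for 72 h before stimulation. The titles of the normal-medium groups give 72 h as well. The growth medium of the line is DMEM with serum, and the labels do not say whether the medium insulin was taken away before stimulation. All groups carry the knockout, no unedited cells are among these libraries, and the labels do not say how many clones the line comes from. The comparisons ask how insulin acts on these genes in each medium, how the medium acts with and without insulin, and whether the medium alters the insulin effect.

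Before S phase, ORC, CDC6 and CDT1 load the MCM2-7 helicase onto replication origins, and MCM10, CDC45 and the GINS complex then turn it on. Cyclin E with CDK2 releases E2F factors from RB family proteins, and E2F factors switch on most S-phase genes. Genes of mitosis are switched on later, largely by B-MYB and FOXM1 acting through the CHR element together with CCAAT boxes bound by NF-Y. Hepatocytes in the adult liver rarely divide, whereas hepatoma lines cycle in culture.

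The 2 sets differ in the letters of their promoters, so 5 members that pass a test below are shown with the motifs of their set. Promoters came from RefSeq (build GRCh38.p14) and ran from 250 bases before to 50 bases after the start of each gene; 33 of the 38 members had one. An E2F motif (TTTCCCGC, TTTGGCGC, TTTCGCGC or TTTGCCGC, either strand) stood in the promoters of 15 of 25 S-phase members and 1 of 8 mitotic members (CDK1), against 3.99% of all RefSeq symbols. A CHR motif (TTTGAA or TTTAAA, either strand) stood in 5 of 25 S-phase members and 5 of 8 mitotic members, against 27.9% of all. CCAAT, on either strand, stood in 17 of 25 S-phase members and all 8 mitotic members with a promoter, against 39.7% of all. Matches of different motifs overlapped 2 times in the 42 promoters that the members have. Capitals mark the E2F match in the 3 S-phase promoters, CDC6 at chr17:40287629-40287928 (plus strand), CDT1 at chr16:88803539-88803838 (plus strand) and PCNA at chr20:5126573-5126872 (minus strand). In the mitotic promoters, TOP2A at chr17:40417847-40418146 (minus strand) and CDK1 at chr10:60778081-60778380 (plus strand), they mark CCAAT and CHR matches. Each sequence runs 5′ to 3′ on the strand of its gene.
CDC6: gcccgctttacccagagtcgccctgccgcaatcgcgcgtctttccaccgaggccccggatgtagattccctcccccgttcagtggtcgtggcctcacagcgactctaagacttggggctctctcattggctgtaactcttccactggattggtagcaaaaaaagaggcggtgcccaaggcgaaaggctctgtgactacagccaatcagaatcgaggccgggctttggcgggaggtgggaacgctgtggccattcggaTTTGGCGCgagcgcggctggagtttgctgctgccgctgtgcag
CDT1: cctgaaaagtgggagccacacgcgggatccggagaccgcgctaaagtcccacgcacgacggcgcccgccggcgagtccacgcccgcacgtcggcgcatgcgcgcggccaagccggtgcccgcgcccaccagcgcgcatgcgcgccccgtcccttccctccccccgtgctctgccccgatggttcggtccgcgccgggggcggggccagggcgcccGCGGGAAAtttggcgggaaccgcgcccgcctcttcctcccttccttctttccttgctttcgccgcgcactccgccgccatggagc
PCNA: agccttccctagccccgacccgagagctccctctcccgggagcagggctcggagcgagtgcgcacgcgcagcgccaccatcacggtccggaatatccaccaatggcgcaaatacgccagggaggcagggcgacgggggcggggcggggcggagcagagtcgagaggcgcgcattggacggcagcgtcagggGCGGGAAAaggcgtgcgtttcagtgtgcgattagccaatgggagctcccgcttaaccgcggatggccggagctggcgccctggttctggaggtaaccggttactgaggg
TOP2A: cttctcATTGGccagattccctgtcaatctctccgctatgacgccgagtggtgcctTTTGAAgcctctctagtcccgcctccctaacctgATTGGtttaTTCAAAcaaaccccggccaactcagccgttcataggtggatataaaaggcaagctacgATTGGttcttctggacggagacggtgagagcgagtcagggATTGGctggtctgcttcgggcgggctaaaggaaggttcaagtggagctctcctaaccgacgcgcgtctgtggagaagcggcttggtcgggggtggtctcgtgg
CDK1: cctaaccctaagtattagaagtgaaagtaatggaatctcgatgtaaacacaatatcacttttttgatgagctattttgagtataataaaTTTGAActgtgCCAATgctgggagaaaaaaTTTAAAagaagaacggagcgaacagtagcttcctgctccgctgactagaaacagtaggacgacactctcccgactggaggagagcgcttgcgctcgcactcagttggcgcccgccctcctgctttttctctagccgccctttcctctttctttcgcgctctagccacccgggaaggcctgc
The E2F match of CDC6 begins 7 bases after the start of the gene. That of CDT1 begins at -35 and that of PCNA at -59, counted from the start. TOP2A holds 6 marked matches between -244 and -53, and CDK1 holds 3 between -161 and -131. A match describes letters and not binding, which was not measured.

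The libraries held 26.6M to 116.8M counts. Within a group, the labels' library codes run on in sets of 3 (replicates 1 to 3, then 4 to 6, then 7 to 9), called triplets here. In 6 libraries (replicates 1 to 3 of untreated cells in resistant medium and 4 to 6 of normal-medium cells with insulin) COL1A1 was below 10 CPM. There, the 18 stromal markers summed to 197.1 to 248.9 CPM with DCN, POSTN and TWIST1 at 0, against 24673 to 82040 CPM in the other 30 libraries. The 19 hepatocyte markers summed to 32532 to 37489 CPM in the 6 libraries and 11989 to 29613 CPM in the other 30. Results are given with and without the 6 libraries. Leaving them out takes a whole triplet from untreated cells in resistant medium and from insulin-stimulated cells in normal medium only. The groups then no longer hold the same triplets. The labels name no cell type other than HepG2, and this is bulk RNA, so the level of a member cannot be assigned to HepG2 cells alone. IGF1R had 77.8 to 134.4 CPM in the 36 libraries; with no unedited cells to set beside, this does not check the knockout. In bulk RNA, fewer cycling cells and less RNA per cycling cell cannot be told apart.

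The group means of both sets were lower in resistant than in normal medium, and within every group the levels in replicates 7 to 9 were the lowest or within 0.02 of it. The level of a set is the mean over its genes of log2(CPM + 0.5), each gene centred on its mean over the 36 libraries. The S-phase set averaged -0.29 ± 0.25 in insulin-stimulated and -0.10 ± 0.32 in untreated cells in resistant medium, and 0.17 ± 0.50 in insulin-stimulated and 0.22 ± 0.57 in untreated cells in normal medium (SD, n = 9 each). The mitotic set averaged -0.20 ± 0.48 and -0.20 ± 0.39 in insulin-stimulated and untreated cells in resistant medium, and 0.24 ± 0.39 and 0.16 ± 0.51 in insulin-stimulated and untreated cells in normal medium. The SDs within groups were about as large as the differences between group means.

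**Figure D1:**
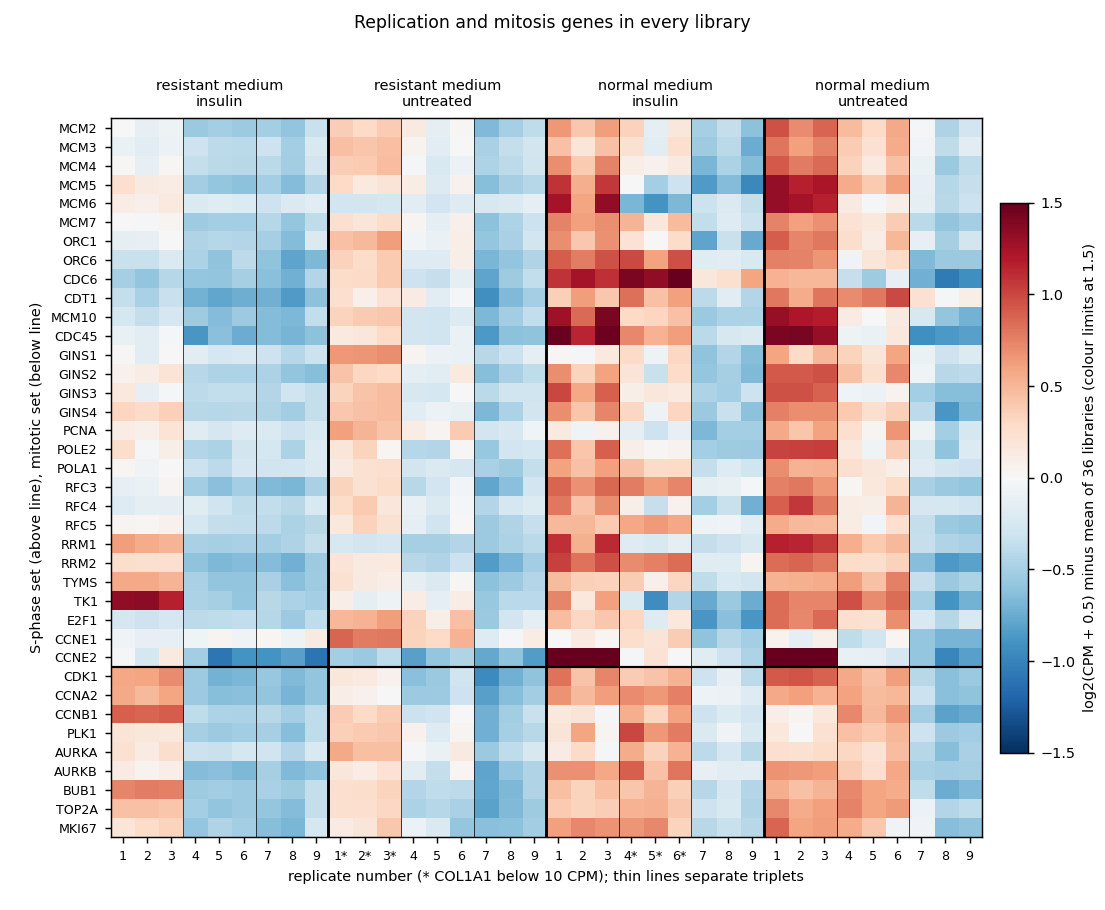
Level of each of the 38 genes in each of the 36 libraries, as log2(CPM + 0.5) minus the mean of the gene over all libraries, in 4 groups of 9 with thin lines between triplets. Replicates 1 to 3 of both normal-medium groups are red for most genes, replicates 7 to 9 of all 4 groups are mostly blue, and an asterisk marks the 6 libraries with COL1A1 below 10 CPM.

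Triplets differed far more than libraries within a triplet. The median SD of a member was 0.12 (log2) within triplets, 0.50 between triplets of a group and 0.27 between groups. The SD between triplets exceeded that between groups for 36 of 38 members, against 71.0% of all 18573 genes tested. Over all those genes the median SDs were 0.22 between triplets and 0.18 between groups. Triplets and batch dates partly coincide. In both untreated groups the 24 May batch holds replicates 4 to 6 and no others, so there this triplet and this batch cannot be told apart. Replicates 1 to 3 and 7 to 9 of those groups each mix 22 April and 11 April. Replicates 7 to 9 of insulin-stimulated cells in resistant medium are all of 11 April.

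Replicates 1 to 3 stood above replicates 7 to 9 of the same group for nearly all members. In insulin-stimulated cells in resistant medium, 36 of 38 members did so with no overlap of the triplets, against 25.6% of all genes tested. In untreated cells in resistant medium it was 37 of 38, against 37.5% of all genes, and MCM6 lay the other way (32, 32.1 and 32.5 CPM against 33, 33.4 and 35.1 CPM). In normal medium it was 38 of 38 in insulin-stimulated cells, against 17.8% of all genes, and 38 of 38 in untreated cells, against 22.6%. The median difference was 0.50 and 0.84 (log2) in insulin-stimulated and untreated cells in resistant medium, and 1.01 and 1.16 in insulin-stimulated and untreated cells in normal medium, while the medians over all genes lay between -0.00 and 0.02. Replicates 4 to 6 sided with replicates 7 to 9 in insulin-stimulated cells in resistant medium (median difference -0.00) and stood above them by a median of 0.32 in untreated cells in resistant medium and 0.73 in both normal-medium groups.

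Stromal transcripts also differed by triplet. In insulin-stimulated cells in resistant medium the 18 stromal markers summed to 33599 to 42272 CPM in replicates 1 to 3 and 63542 to 76719 CPM in replicates 4 to 9. In untreated cells in resistant medium they summed to 231.9 to 248.9, 35783 to 39372 and 62238 to 82040 CPM in the triplets in order. In untreated cells in normal medium these sums were 45304 to 50963, 24673 to 29422 and 67863 to 72102 CPM, so there replicates 1 to 3 had the highest S-phase level but not the lowest stromal sum. For normal medium with insulin they were 27139 to 56277, 197.1 to 248.9 and 39714 to 52815 CPM, and the triplet with the lowest sums had an S-phase level of 0.22 ± 0.13, below the 0.71 ± 0.15 of replicates 1 to 3. The part of stromal transcripts in the levels of the members was not tested.

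The balance of the sets also went by triplet. The S-phase level minus the mitotic level was -0.41 ± 0.03 in replicates 1 to 3 of insulin-stimulated cells in resistant medium (SD, n = 3), where the mitotic set was high (0.44 ± 0.03) and the S-phase set was near its overall mean (0.04 ± 0.04). In the other triplets of that group it was 0.08 ± 0.01 and 0.04 ± 0.02. In untreated cells in resistant medium it was 0.00 ± 0.01, 0.16 ± 0.03 and 0.14 ± 0.02 in the triplets in order. In insulin-stimulated cells in normal medium it was 0.28 ± 0.17, -0.35 ± 0.08 and -0.14 ± 0.03, and in untreated cells in normal medium 0.36 ± 0.02, -0.24 ± 0.12 and 0.06 ± 0.04. Averaged over 9 libraries, insulin minus untreated was -0.20 in resistant medium and -0.13 in normal medium, and resistant minus normal medium was -0.03 in insulin-stimulated and 0.04 in untreated cells. Without the 6 libraries the insulin differences were -0.25 in resistant and 0.01 in normal medium, and the medium differences were -0.17 in insulin-stimulated and 0.09 in untreated cells.

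**Figure D2:**
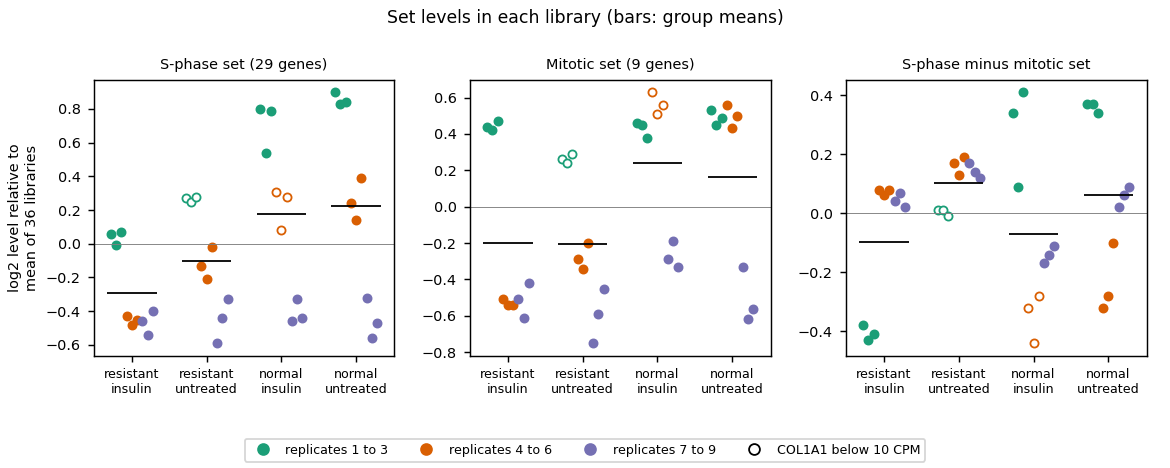
Level of the S-phase set, the mitotic set and their difference (log2, relative to the mean of 36 libraries) in each library, coloured by triplet, with open points for libraries with COL1A1 below 10 CPM and bars at group means. The points cluster by triplet: replicates 1 to 3 of insulin-stimulated cells in resistant medium have a low S-phase minus mitotic difference (-0.43 to -0.38), while replicates 1 to 3 of untreated cells in normal medium have a high one (0.34 to 0.37).

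Cyclin E2 (CCNE2), a partner of CDK2 at entry to S phase, had the widest span. Replicates 1 to 3 held 12.2, 21.4 and 22.7 CPM in insulin-stimulated cells and 17.5, 19.2 and 21.1 CPM in untreated cells in normal medium. The other 30 libraries held 1.16 to 3.65 CPM. Cyclin E1 (CCNE1), which has the same partner, did not share this pattern. In those same triplets it held 22.9 to 25.3 CPM in insulin-stimulated and 20.7 to 24.3 CPM in untreated cells, close to the 21.0 to 25.2 CPM of insulin-stimulated cells in resistant medium.

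Other members of the S-phase set were also high in replicates 1 to 3 in normal medium. MCM6, a subunit of the helicase, had 59.3, 93.2 and 98.6 CPM there in insulin-stimulated cells and 88.5, 93.3 and 97.9 CPM in untreated cells, against 20.8 to 42.8 CPM in the other triplets of both groups. Its 18 libraries in resistant medium spanned 31.4 to 43.2 CPM. CDC45, which binds the helicase when it is turned on, had 25.9 to 33 CPM in insulin-stimulated and 29 to 31.6 CPM in untreated cells in those triplets, against 5.81 to 19.2 CPM in the other triplets in normal medium.

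The remaining helicase and activation genes followed the triplets in smaller steps. MCM5 had 33, 36.2 and 61.7 CPM (lowest, median, highest) in insulin-stimulated and 33.2, 54.5 and 63.7 CPM in untreated cells in resistant medium, and 26.3, 41.8 and 111 CPM in insulin-stimulated and 38.3, 76.3 and 130 CPM in untreated cells in normal medium. MCM4, another helicase subunit, had 60.3, 67.8 and 88.3 CPM and 62.7, 81.6 and 120 CPM in insulin-stimulated and untreated cells in resistant medium, and 53.8, 93.4 and 146 CPM and 59, 111 and 165 CPM in insulin-stimulated and untreated cells in normal medium. For both genes the highest value of each group lay in replicates 1 to 3, and all 4 groups overlapped. ORC1, a subunit of the origin recognition complex, spanned 4.99 to 8.11 CPM and 5.3 to 12.9 CPM in insulin-stimulated and untreated cells in resistant medium, and 4.49 to 13.5 CPM and 5.6 to 15.7 CPM in insulin-stimulated and untreated cells in normal medium. In the fit of all libraries with batch date, MCM3, GINS2, GINS3 and GINS4 were not called in any of the 4 comparisons of insulin or medium.

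POLE2, a subunit of the leading-strand polymerase, spanned 2.84 to 5.06 CPM and 2.62 to 5.33 CPM in insulin-stimulated and untreated cells in resistant medium, and 2.67 to 8.15 CPM and 2.55 to 9.03 CPM in insulin-stimulated and untreated cells in normal medium. RFC4, a clamp loader subunit like RFC3, spanned 11.1 to 13.5 CPM and 10.9 to 19.7 CPM in insulin-stimulated and untreated cells in resistant medium, and 8.89 to 26.1 CPM and 12 to 31.6 CPM in insulin-stimulated and untreated cells in normal medium. Both genes reached their upper values in replicates 1 to 3 of normal medium. TYMS, which makes thymidylate, differed in that its highest libraries were spread over groups: it reached 131 CPM in insulin-stimulated and 103 CPM in untreated cells in resistant medium, and 122 CPM in insulin-stimulated and 149 CPM in untreated cells in normal medium.

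MKI67, the proliferation antigen Ki-67, had 57.2, 67.4 and 117 CPM in insulin-stimulated and 59.4, 79.3 and 122 CPM in untreated cells in resistant medium, and 69.2, 142 and 153 CPM in insulin-stimulated and 59.3, 122 and 169 CPM in untreated cells in normal medium. In normal medium replicates 4 to 6 were as high as replicates 1 to 3 for several mitotic genes, unlike most S-phase genes. PLK1 had 116 to 125 CPM in replicates 4 to 6 and 88.3 to 103 CPM in replicates 1 to 3 of untreated cells there, and CCNB1 had 98.8 to 116 CPM and 72.2 to 78.4 CPM. In untreated cells the median of replicates 1 to 3 minus replicates 4 to 6 was 0.52 (log2) over the S-phase set and -0.03 over the mitotic set, against -0.02 over all genes tested.

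Replicates 1 to 3 of insulin-stimulated cells in resistant medium, where 36 of 38 members lay above replicates 7 to 9, are shown by TK1, RRM1, CCNB1 and BUB1 as examples. TK1, which salvages thymidine, had 106, 119 and 120 CPM there, against 31.4 to 35.3 CPM in replicates 4 to 9 of the group. CCNB1, the cyclin that drives CDK1 in mitosis, had 129, 131 and 133 CPM there, against 49.5 to 54.1 CPM. BUB1, a spindle checkpoint kinase, had 59.2, 60.2 and 60.6 CPM there, against 24.1 to 27.4 CPM. RRM1, the large subunit of ribonucleotide reductase, had 85.5, 88.7 and 93.3 CPM there, against 41.9 to 46.6 CPM. These 3 libraries stood above the rest of their group without overlap for all 4 genes, which were picked out after their values were seen and are not particular in this.

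**Figure D3:**
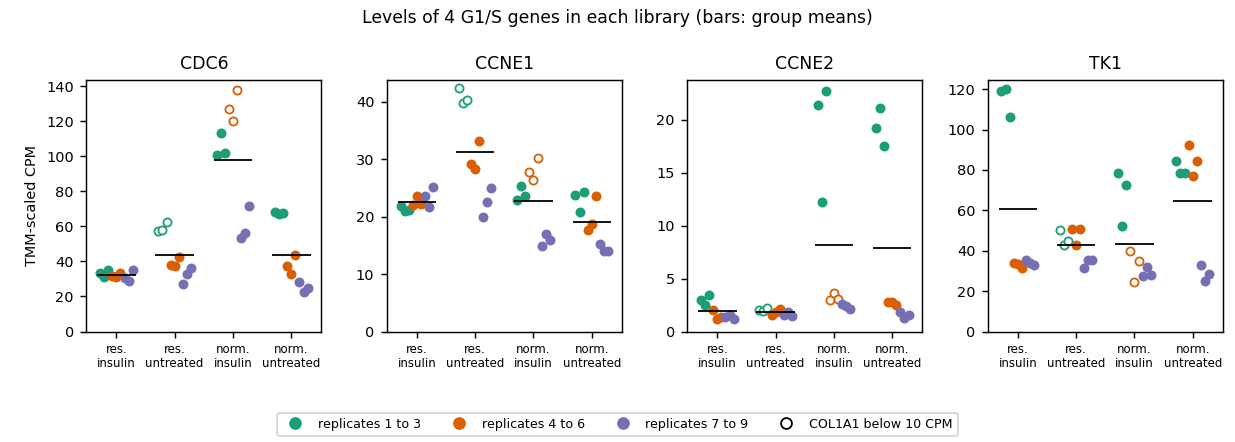
TMM-scaled CPM of CDC6, CCNE1, CCNE2 and TK1 in each library, by group and triplet, with open points for the libraries with COL1A1 below 10 CPM and bars at group means. CDC6 is at 53.5 CPM or more in all 9 insulin-stimulated libraries in normal medium and at 35.2 CPM or less in all 9 in resistant medium, while CCNE2 is high in replicates 1 to 3 of both normal-medium groups (12.2 to 22.7 CPM) and TK1 is highest in replicates 1 to 3 of insulin-stimulated cells in resistant medium (106 to 120 CPM).

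In resistant medium, insulin changed none of the 38 genes by the adjusted test in the fit of all libraries with batch date. Called members were 0 of 38, as were 0% of all genes tested, and 4 members and 4520 genes had an unadjusted p under 0.05. Without the 6 libraries 0 members and 0% of genes were called, with 8 members and 970 genes under 0.05 unadjusted. DESeq2 called 0 members and 87 genes, and edgeR with no batch term called 2 members, both lower, and 2063 genes. Members were also called with a replicate block in place of batch and with the triplet number beside batch, the latter chosen after seeing the data. Those counts are in the closing section, so the result depends on how triplets enter the fit. The median log2 fold change was -0.24 for the S-phase set and 0.18 for the mitotic set, against 0.00 for all genes. Leaving out the 6 libraries turned the first of these: the medians were 0.08 for the S-phase set and 0.65 for the mitotic set, against -0.02 for all genes, and the 8 members under 0.05 unadjusted were 2 of 29 S-phase and 6 of 9 mitotic genes. Here that removes replicates 1 to 3 of untreated cells (mitotic level 0.26 ± 0.02). Replicates 1 to 3 of insulin-stimulated cells stay (mitotic level 0.44 ± 0.03). The groups then hold unlike triplets, so this fit cannot tell insulin and triplet apart.

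The members with the smallest p in this comparison were G1/S genes. CCNE1 had 21.0, 22.0 and 25.2 CPM (lowest, median, highest) in insulin-stimulated cells and 20.0, 29.1 and 42.4 CPM in untreated cells, a log2 fold change of -0.45 ± 0.16 (SE) with an adjusted p of 0.121. Its untreated libraries above 39 CPM were the 3 with COL1A1 below 10 CPM, and the change was -0.09 without the 6 such libraries. E2F1, the transcription factor that drives S-phase genes, had 29.8, 33.6 and 36.8 CPM in insulin-stimulated and 29.6, 56.0 and 68.1 CPM in untreated cells (-0.51 ± 0.21, adjusted p = 0.147), and the change was -0.19 without the 6 libraries. TK1 had 31.4, 33.8 and 120 CPM in insulin-stimulated and 31.5, 42.9 and 50.9 CPM in untreated cells (0.72 ± 0.31, adjusted p = 0.16), the highest being the triplet described above. All 3 pairs of groups overlapped.

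In normal medium, insulin raised CDC6 and lowered PCNA, and no other member passed in the fit without pairing. These were 1 of 38 higher, against 19.1% of all genes tested, and 1 of 38 lower, against 12.9%, so in this fit fewer members than genes at large were called. With the replicate number as a block this did not hold for members called lower, as given below. CDC6, which loads the MCM helicase at origins, had 53.5, 102 and 138 CPM (lowest, median, highest) in insulin-stimulated cells and 22.5, 37.3 and 68.4 CPM in untreated cells. The groups overlapped: replicates 7 and 8 with insulin lay below replicates 1 to 3 without it. The log2 fold change was 1.17 ± 0.22 (SE, adjusted p = 7.61e-05). It was 0.92 without the 6 libraries (adjusted p = 0.00139), and 0.85, 1.16 and 1.63 within the batches of 22 April, 11 April and 24 May (adjusted p = 0.251, 0.143 and 0.000605). In this comparison the 24 May fit set insulin replicates 2 and 4 against untreated replicates 4 to 6. The 11 April fit set insulin replicates 6 and 9 against untreated replicates 2 and 9. Insulin replicates 4 and 6 are low in COL1A1, so these 2 fits cannot tell insulin apart from triplet or stromal level.

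PCNA, the sliding clamp of the replicative polymerases, had 96.3, 139 and 169 CPM in insulin-stimulated cells and 108, 184 and 245 CPM in untreated cells. Its log2 fold change was -0.44 ± 0.15 (adjusted p = 0.0201), -0.45 without the 6 libraries, and -0.47, -0.43 and -0.49 within the 3 batches (adjusted p = 0.407, 0.376 and 0.0926). The groups overlapped over most of their ranges. ORC6, another licensing factor, had 18.4, 37.3 and 43.6 CPM with insulin and 13.5, 24.6 and 37.0 CPM without (0.42 ± 0.22, adjusted p = 0.144).

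Libraries of the same number deviated together in the normal-medium groups, and with the replicate number as a block in place of batch more members were called. In the fit of all 36 libraries 5 of 38 were then higher, against 15.4% of genes, and 11 of 38 lower, against 16.6%. That fit also blocks the resistant-medium groups by number. In deviations from group means, untreated libraries in resistant medium correlated with same-numbered insulin-stimulated libraries in normal medium at -0.82 to 0.74. Fitted on the 18 normal-medium libraries alone, an alternative chosen after seeing the data, 9 of 38 were higher, against 15.7% of genes, and 10 of 38 lower, against 14.0%. CDC6 had 1.15 and 1.22 in these fits (adjusted p = 5.19e-07 and 0.00102), and PCNA -0.49 and -0.43 (adjusted p = 1.13e-05 and 0.00328). In both fits MCM2, MCM3, MCM4, MCM5, CDT1, GINS1, GINS2, PCNA, RFC4 and E2F1 were lower, and ORC6, CDC6, RFC3, RFC5 and RRM2 were higher. Same-numbered libraries also share the triplet, so neither fit can tell pairs of libraries apart from triplets.

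Without the 6 libraries, CDC6 was higher (1 of 38, against 16.6% of genes) and CDT1, GINS1 and PCNA were lower (3 of 38, against 17.1%). That fit drops replicates 4 to 6 of insulin-stimulated cells only, so it cannot tell insulin and triplet apart. CDT1, the partner of CDC6 in loading the helicase, changed by -0.42 ± 0.14 in that fit (adjusted p = 0.0234), and by -0.24 ± 0.16 with all libraries (adjusted p = 0.265). GINS1, a subunit of the active helicase, changed by -0.47 ± 0.14 (adjusted p = 0.00729), and by -0.32 ± 0.17 with all libraries (adjusted p = 0.145). Among mitotic genes the largest change was that of PLK1 (0.33 ± 0.18, adjusted p = 0.163), and it was 0.06 without the 6 libraries. With the counts of each triplet summed to 1 sample, 0 members and 3.48% of genes were called; CDC6 had 1.09 (adjusted p = 0.141).

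In untreated cells, resistant medium raised CCNE1 and lowered CDT1, RRM1, CCNE2, CDK1 and TOP2A. That is 1 of 38 members higher, against 12.4% of genes tested, and 5 of 38 lower (3 S-phase, 2 mitotic), against 7.98%. CCNE1 had 20.0, 29.1 and 42.4 CPM (lowest, median, highest) in resistant medium and 14.0, 18.7 and 24.3 CPM in normal medium, with overlap between the groups. Its log2 fold change was 0.71 ± 0.15 (adjusted p = 0.000602), and 0.42 without the 6 libraries (adjusted p = 0.0136). Within the batches of 22 April, 11 April and 24 May it was 0.67, 0.86 and 0.58 (adjusted p = 0.262, 0.204 and 0.0335). The 24 May libraries here are replicates 4 to 6 of both groups, 1 triplet in each. That p therefore measures only the spread within triplets. CCNE2 went the other way from CCNE1, with 1.5, 1.88 and 2.23 CPM in resistant medium and 1.31, 2.76 and 21.1 CPM in normal medium (-1.96 ± 0.56, adjusted p = 0.011). All CCNE2 values above 3 CPM belonged to replicates 1 to 3 of normal medium; the change was -0.57 within the 24 May batch, which holds none of them (adjusted p = 0.515), and -1.85 without the 6 libraries (adjusted p = 0.0525).

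CDT1 had 20.4, 38.3 and 46.4 CPM in resistant medium and 38.2, 64.2 and 77.6 CPM in normal medium. Replicates 1 to 6 in normal medium, at 57.6 CPM or more, lay above all 9 libraries in resistant medium. Its log2 fold change was -0.71 ± 0.16 (adjusted p = 0.00128), -1.0 without the 6 libraries low in COL1A1, and -0.71, -0.56 and -0.87 within the 3 batches (adjusted p = 0.267, 0.479 and 0.00469). The last of these batch fits holds 1 triplet per group, so its p measures only the spread within triplets. RRM1, which makes deoxynucleotides together with RRM2, had 40.9, 44.0 and 50.7 CPM in resistant medium and 42.7, 84.3 and 135 CPM in normal medium (-0.93 ± 0.25, adjusted p = 0.00631). It spanned little in resistant medium, and in replicates 7 to 9 of normal medium it was as low (42.7 to 47.3 CPM).

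The mitotic genes CDK1 and TOP2A fell in the same comparison. CDK1, the kinase that starts mitosis, had 16.4, 21.8 and 36.5 CPM in resistant medium and 20.7, 48.2 and 62.5 CPM in normal medium (-0.76 ± 0.26, adjusted p = 0.0342). TOP2A, which untangles sister chromatids, had 112, 140 and 243 CPM in resistant medium and 144, 295 and 327 CPM in normal medium (-0.61 ± 0.21, adjusted p = 0.0358). In both genes replicates 1 to 6 of normal medium lay above all resistant libraries, and replicates 7 to 9 lay among them. CCNA2, the cyclin of late S phase and G2, changed by -0.59 ± 0.22 (adjusted p = 0.0584) with all libraries.

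Leaving out the 6 libraries here removes replicates 1 to 3 of untreated cells in resistant medium and keeps those in normal medium. The groups then hold unlike triplets, so this fit cannot tell medium and triplet apart. In it the count of lower members was 17 of 38, against 12.7% of genes, and CCNE1 was the 1 higher member, against 13.0%. The 17 were MCM2, MCM3, MCM5, CDT1, GINS1, GINS2, POLA1, RRM1, RRM2 and TYMS of the S-phase set and CDK1, CCNA2, PLK1, AURKB, BUB1, TOP2A and MKI67 of the mitotic set. The median change was -0.61 for the S-phase set and -0.74 for the mitotic set, against 0.02 over all genes; with all 36 libraries these were -0.36, -0.44 and -0.03. In the same comparison without the 6 libraries 12 of 19 hepatocyte markers fell and 1 rose (median -0.34; 4 fell and 1 rose with all libraries), and 0 of 18 stromal markers were called (median 0.40); their part in the members' values was not tested. Within the batch of 24 May, whose libraries here are replicates 4 to 6 of both groups, 17 members were called (16 lower), and within the other batches 0 were. The shares of all genes in these batch fits are not given here, so these counts are not read as particular to the members. With summed triplets 0 members and 2.37% of genes were called.

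In insulin-stimulated cells, resistant medium lowered 13 members and raised none. The 13 lower members (11 S-phase, 2 mitotic) compare with 21.4% of genes tested, and the 0 higher with 16.1%. They were MCM7; ORC6, CDC6 and CDT1; MCM10 and CDC45; POLA1, RFC3 and RFC5; RRM2; CCNE2; and PLK1 and AURKB. In the same comparison 14 of 19 hepatocyte markers fell and 1 rose (median -0.64), and 0 of 18 stromal markers were called (median 0.97). Stromal sums spanned 197.1 to 56277 CPM in normal and 33599 to 76719 CPM in resistant medium, so 0 called does not mean like stromal levels. Without the 6 libraries 8 hepatocyte markers fell and 3 rose (median -0.17), and the stromal median was 0.21. The part of these markers in the members' values was not tested. Of the members, 3 of 4 origin licensing genes were called lower, and 1 of 6 MCM2-7 genes.

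CDC6 had 28.6, 31.7 and 35.2 CPM in resistant medium and 53.5, 102 and 138 CPM in normal medium, and the groups did not overlap. Its log2 fold change was -1.65 ± 0.23 (adjusted p = 1.49e-06), -1.34 without the 6 libraries, -1.43 and -1.67 within the batches of 22 April and 11 April (adjusted p = 0.069 and 0.00805), and -1.54 with summed triplets (adjusted p = 0.0483). It was the 1 member called with summed triplets, against 4.62% of genes. No insulin-stimulated library in resistant medium belongs to the 24 May batch.

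CDT1 had 21.4, 23.6 and 30.8 CPM in resistant medium and 28.5, 51.6 and 69.5 CPM in normal medium (-0.81 ± 0.17, adjusted p = 0.000327). ORC6 had 12.3, 15.4 and 18.6 CPM in resistant medium and 18.4, 37.3 and 43.6 CPM in normal medium (-1.07 ± 0.23, adjusted p = 0.000473). In both genes only replicates 7 to 9 of normal medium came down to the levels of resistant medium. RFC3, a subunit of the clamp loader, had 13.1, 14.8 and 21.9 CPM in resistant medium and 19.3, 34.6 and 39.5 CPM in normal medium (-0.92 ± 0.22, adjusted p = 0.00135).

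CDC45 had 6.04, 7.23 and 11.3 CPM in resistant medium and 8.58, 18 and 33 CPM in normal medium (-1.23 ± 0.35, adjusted p = 0.00641). MCM10, which acts beside CDC45, had 8.10, 8.94 and 11.0 CPM in resistant medium and 8.85, 16.6 and 36 CPM in normal medium (-1.01 ± 0.31, adjusted p = 0.00917). The groups overlapped through replicates 7 to 9 of normal medium. RRM2, the small and cell-cycle-timed subunit of ribonucleotide reductase, had 65.6, 71.4 and 131 CPM in resistant medium and 95.6, 184 and 222 CPM in normal medium (-0.83 ± 0.26, adjusted p = 0.0105). RRM1 and the MCM2-7 genes other than MCM7 were not called; MCM2 changed by -0.39 ± 0.21 (adjusted p = 0.136).

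AURKB, the kinase of the chromosomal passenger complex, had 14.6, 15.4 and 25.8 CPM in resistant medium and 21.0, 35.7 and 44.3 CPM in normal medium (-0.73 ± 0.21, adjusted p = 0.00615). PLK1, a kinase of mitotic entry and exit, had 56.5, 62.4 and 101 CPM in resistant medium and 75.4, 101 and 177 CPM in normal medium (-0.49 ± 0.19, adjusted p = 0.0382). The highest PLK1 values, 139, 152 and 177 CPM, belong to 3 of the 6 libraries low in COL1A1, and the change was -0.12 without the 6 (adjusted p = 0.532). With the 6 libraries left out, 7 members were called lower, against 17.3% of genes, and 0 higher, against 18.3%. The 7 were ORC6, CDC6, CDT1, MCM10, CDC45, RFC3 and CCNE2, with no mitotic gene. Leaving out the 6 here removes replicates 4 to 6 of normal medium (mitotic level 0.57 ± 0.06). It keeps replicates 4 to 6 of resistant medium (-0.53 ± 0.02). The groups then hold unlike triplets, so this fit cannot tell medium and triplet apart.

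**Figure D4:**
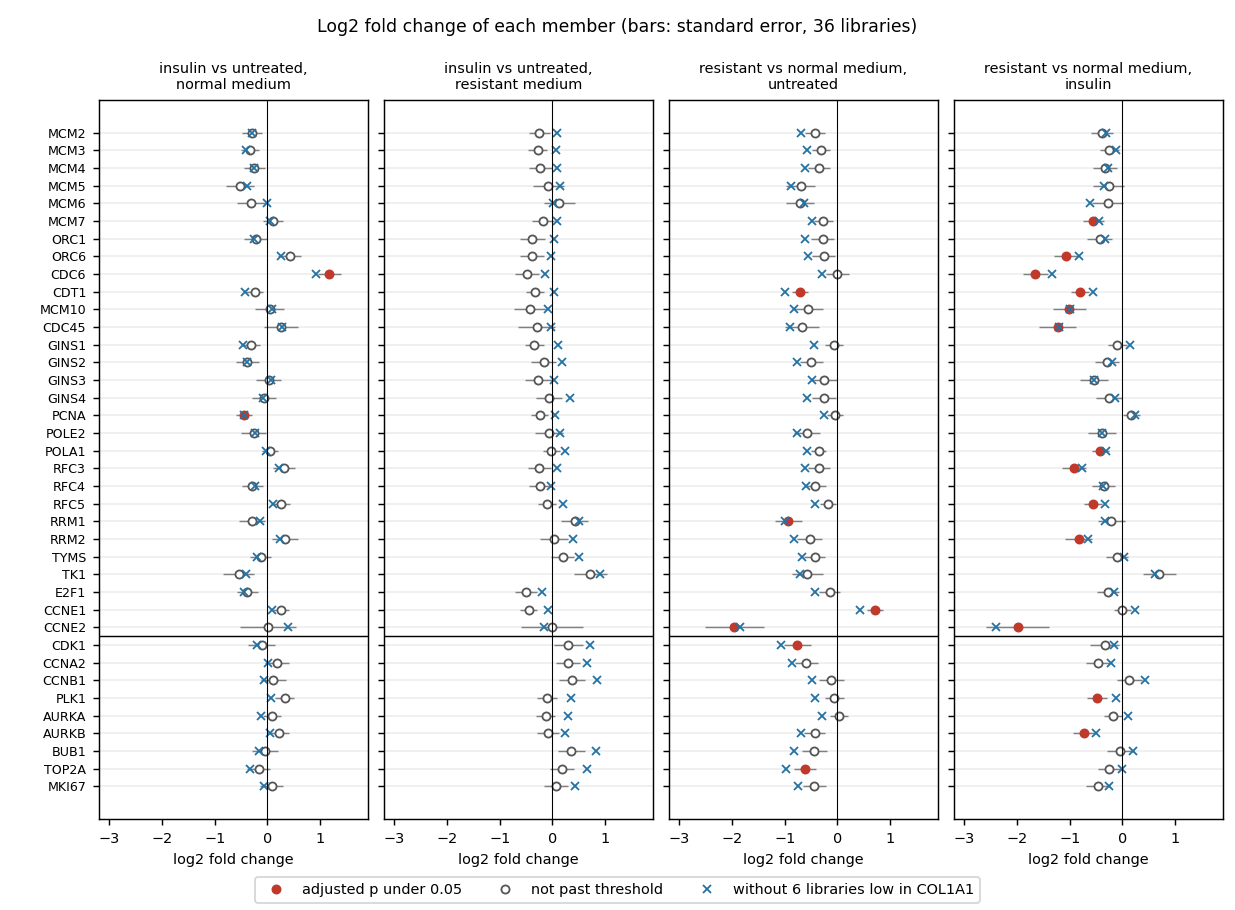
Log2 fold change of each member in the 4 comparisons, with bars for the standard error over 36 libraries, filled points for an adjusted p under 0.05, and crosses for the values without the 6 libraries low in COL1A1. CDC6 stands out at 1.17 for insulin in normal medium and -1.65 for resistant medium with insulin, and leaving out the 6 libraries moves most members down in the comparison of media in untreated cells.

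The insulin effect differed between media for 3 members. In the interaction test, which takes the insulin effect in resistant medium minus that in normal medium, TK1 was called higher (1 of 38, against 9.21% of genes) and CDC6 and CCNE1 lower (2 of 38, against 18.6%). For CDC6 the difference was -1.65 ± 0.31 (adjusted p = 0.000237), made of -0.48 in resistant medium and 1.17 in normal medium. For TK1 it was 1.28 ± 0.43 (adjusted p = 0.0254), from 0.72 and -0.55 in the same order, and for CCNE1 it was -0.71 ± 0.22 (adjusted p = 0.0139), from -0.45 and 0.26. Without the 6 libraries, CDC6 stayed lower at -1.06 (adjusted p = 0.0206; 1 of 38, against 11.2% of genes), CCNE1 was -0.18 (adjusted p = 0.571) and TK1 1.32 (adjusted p = 0.0687). GINS1 at 0.58 and TOP2A at 0.98 were then called higher (2 of 38, against 11.0%). With summed triplets 0 members and 0.0245% of genes were called.

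The 35 other replication genes measured were called lower more often than higher with resistant medium. There 8 of 35 fell in untreated cells, against 7.98% of genes, and 0 rose, against 12.4% (median -0.36). In insulin-stimulated cells 13 of 35 fell, against 21.4% of genes, and 1 rose, against 16.1% (median -0.37). With the 6 libraries left out 15 fell in untreated cells, against 12.7% of genes, and 0 rose, against 13.0% (median -0.55). In insulin-stimulated cells 8 then fell, against 17.3%, and 1 rose, against 18.3% (median -0.37). In untreated cells PRIM1, the catalytic subunit of primase, averaged 9.91 ± 2.78 CPM in resistant medium and 14.6 ± 4.12 CPM in normal medium (-0.56 ± 0.18, adjusted p = 0.0212). With insulin in normal medium 6 of 35 rose, near the 19.1% of all genes, and 0 fell, against 12.9%. DBF4, the activator of the origin-firing kinase CDC7, averaged 25.6 ± 6.18 CPM with insulin and 17.6 ± 4.24 CPM without (0.53 ± 0.17, adjusted p = 0.0127). Its change was 0.33 without the 6 libraries (adjusted p = 0.106), where 1 gene of the list rose, against 16.6% of genes.

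The 35 other mitosis genes measured were mostly called lower with resistant medium in untreated cells. With all libraries 21 fell, against 7.98% of genes, and 0 rose, against 12.4% (median -0.73). Without the 6 libraries, where the groups hold unlike triplets, 32 fell, against 12.7% of genes (median -1.01). KIF23, a kinesin of cytokinesis, averaged 22.2 ± 2.07 CPM in resistant medium and 46.6 ± 20.5 CPM in normal medium (-1.07 ± 0.27, adjusted p = 0.00462). CDC25C, the phosphatase that turns on CDK1, averaged 6.2 ± 1.6 CPM in resistant medium and 11.0 ± 2.54 CPM in normal medium (-0.82 ± 0.19, adjusted p = 0.00165). In insulin-stimulated cells 5 fell, against 21.4% of genes, and 1 rose, against 16.1%. Without the 6 libraries 0 fell, against 17.3%, and 1 rose, against 18.3%. With all libraries the riser was KIF20A, another kinesin of cytokinesis. It had 42.9 ± 38.3 CPM in resistant medium and 21.8 ± 4.11 CPM in normal medium (1.2 ± 0.36, adjusted p = 0.00962). For 7 genes of this list the interaction was called, all higher, against 9.21% of genes, among them KIF20A (2.09 ± 0.50, adjusted p = 0.00229). Without the 6 libraries it was called higher for 13, against 11.0%.

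Of 23 G1 cyclins, CDKs, inhibitors and RB-E2F genes, CDKN2A, CDKN2B and CCND2 rose with resistant medium in untreated cells. CDKN2A, which encodes p16 and ARF, averaged 28.3 ± 5.67 CPM in resistant medium and 13.1 ± 2.66 CPM in normal medium (1.10 ± 0.12, adjusted p = 1.3e-08). In insulin-stimulated cells it averaged 25.5 ± 2.01 CPM in resistant medium and 12.6 ± 2.94 CPM in normal medium (1.09 ± 0.13, adjusted p = 5.48e-08). CDKN2B, its neighbour that encodes p15, averaged 38.1 ± 9.16 CPM in resistant medium and 15.6 ± 12.6 CPM in normal medium in untreated cells (1.35 ± 0.30, adjusted p = 0.00133). In all, 3 of 23 rose in untreated cells, near the 12.4% of all genes, and 6 fell, against 7.98%. Without the 6 libraries 3 rose, against 13.0% of genes, and 9 fell, against 12.7%. In insulin-stimulated cells 4 of 23 rose, against 16.1% of genes, and 7 fell, against 21.4%. Without the 6 libraries 2 rose, against 18.3% of genes, and 7 fell, against 17.3%.

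Insulin in normal medium raised 5 of 23 genes of this list, near the 19.1% of all genes, and lowered 2, against 12.9%. CDK4, the kinase of cyclin D, averaged 190 ± 39.9 CPM with insulin and 134 ± 12.8 CPM without (0.52 ± 0.09, adjusted p = 2.05e-05). CDKN1B, the CDK inhibitor p27, averaged 127 ± 26.8 CPM with insulin and 84.5 ± 12.2 CPM without (0.62 ± 0.09, adjusted p = 1.02e-06). E2F4, an E2F factor of repressor complexes, averaged 101 ± 24.2 CPM with insulin and 69.4 ± 6.27 CPM without (0.56 ± 0.09, adjusted p = 7.69e-06). With the 6 left out their changes were 0.35, 0.44 and 0.35, all called, and their interactions were called lower with all libraries and without the 6.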

How the data were processed

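RNA was poly-A selected and strand-specific libraries were made, per the labels' protocols. The authors deposited 1 table of expected counts (estimated counts per Ensembl gene, 15.5% of values not whole), not scaled. STAR, Salmon and GRCh37 are named in the submitters' processing notes; their versions and settings are not given in these sources. Counts were rounded. Gene symbols were matched on the Ensembl identifier in a GRCh38 annotation.

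Groups came from the titles. All 36 libraries entered 1 edgeR 4.0.16 model (R 4.3.3; TMM, filterByExpr, a coefficient per group plus batch date, robust quasi-likelihood F-test). Benjamini-Hochberg adjustment ran over 18573 genes, with calls at an adjusted p under 0.05. Levels are TMM-scaled CPM; levels are compared within a gene only. Set levels used an offset of 0.5 CPM and carry no test. The test was tried on simulated counts. Alternatives included DESeq2 1.42.0, other scalings and filters, and fits within batches.

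Members and lists were chosen with earlier results of these data known. Full statistics go to the 2 members per role with the smallest p in a comparison, to called members, and to up to 3 genes of each other list. UHRF1 and PECAM1 were not analysed here. Not every gene that meets this rule is reported here. The labels number replicates 1 to 9 in each group. Deviations from group means of same-numbered libraries correlated at 0.19 to 0.50 in the normal-medium groups, over 0.1 in all 9 pairs, so the numbers were taken to pair insulin-stimulated and untreated cells there; this comes from the data, not the labels, and these pairs also share the triplet. Each other pair of groups had pairs under 0.1. No replicate pair agreed within sampling noise. The labels call replicates biological but name no cultures, and triplets share more than a group does, so p-values measure the spread between these libraries, which may be partly technical. At these totals counting error is small beside that spread. Paralogs and antisense partners could share reads in ways that cannot be checked here.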

Additional observations from a re-analysis of the deposited data

Results flagged for a closer look

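The insulin effect in resistant medium differed from that in normal medium for 3 members by the interaction test of edgeR. The differences were -1.65 for CDC6, 1.28 for TK1 and -0.71 for CCNE1 (log2, adjusted p = 0.000237, 0.0254 and 0.0139). Without the 6 libraries low in COL1A1 they were -1.06, 1.32 and -0.18, and CDC6 alone remained called. Within the batches of 22 April and 11 April they were -1.35 and -1.67 for CDC6, 1.40 and 1.05 for TK1, and -0.62 and -0.85 for CCNE1, none of them called. The part of stromal transcripts and of single triplets in these differences was not tested. Among the 164 groups of values examined, members and set levels alike, no single library lay apart from its group; this check looks for 1 library and cannot see libraries that stand apart in threes.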

How the results depend on the processing

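Counts of called members moved by over 1.5 times under several settings. For insulin in normal medium (2 called), the count was 4 without the libraries low in COL1A1, 1 with only the groups compared, 0, 0 and 10 within the batches of 22 April, 11 April and 24 May, 16 with the triplet number beside batch, 0 with triplet sums, and 0 with triplet sums and the triplet number. For insulin in resistant medium (0 called), it was 2 with no batch term, 3 with only the groups compared and 11 with the triplet number beside batch. For resistant medium in untreated cells (6 called), it was 18 without the libraries low in COL1A1, 0, 0 and 17 within the batches in the same order, 25 with the triplet number, and 0 with triplet sums with or without it. For resistant medium in insulin-stimulated cells (13 called), it was 7 without the libraries low in COL1A1, 8 with only the groups compared, 0 and 1 within the April batches, 23 with the triplet number, 1 with triplet sums, and 4 with triplet sums and the triplet number. For the interaction (3 called), it was 0 within each April batch, 10 with the triplet number, and 0 with triplet sums with or without it. The terms for the triplet number, alone and with triplet sums, and the filter by group were chosen after seeing the data. No share of all genes stands beside the counts of this section, so they show how the calls move and not a trait of the members. The causes were not tested.

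With a replicate block in place of batch, the counts were 9 and 16 for insulin in resistant and normal medium (19 in normal medium with the replicate block on only the groups compared, added after seeing the data), 22 and 22 for resistant medium in insulin-stimulated and untreated cells, and 7 for the interaction. Over all 6 pairs of groups, correlations of deviations of same-numbered libraries ran from -0.82 to 0.74, 30 of 54 were over 0.1, and the best match had the same number in 17 of 108 cases. The numbers pair the samples by this measure in the 2 normal-medium groups only.

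Leaving out 1 library at a time gave 1 to 5 called members for insulin in normal medium (1 without untreated replicate 3, 5 without insulin replicate 1), and 3 to 11 for resistant medium in untreated cells (3 without normal-medium untreated replicate 2, 11 without replicate 8 and 10 without replicate 9). The 24 log2 fold changes called kept their direction in all alternatives run, and all 24 stayed called under DESeq2, its size factors, averaged TMM, and the filters by CPM and by group. Other settings lost calls: 9 without the libraries low in COL1A1, 6 with only the groups compared, 3 with no low-count filter and 1 with no batch term. Triplet sums lost 23, and triplet sums with the triplet number lost 20. Within the batches of 22 April, 11 April and 24 May, 24, 23 and 2 were lost. No 24 May fit was possible for the comparisons that need insulin-stimulated cells in resistant medium.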
